A study of Mus musculus with 8 samples.

Results

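The endoplasmic reticulum (ER) chaperone and unfolded protein response genes described here are 31 mouse genes of 50143 gene IDs in the deposited count table. They were chosen by name, not by a cut on their values, though with earlier results of these data known. All 31 were found by their GENCODE M21 symbols, and all 31 passed the filter on low counts. The ER folds and glycosylates proteins bound for the cell surface or for secretion. When unfolded proteins build up in it, the sensors IRE1 (gene Ern1), PERK (Eif2ak3) and ATF6 (Atf6) start the unfolded protein response, which raises chaperones and the machinery that draws misfolded proteins back out for degradation (ER-associated degradation, ERAD). PERK also slows translation, and the phosphatase subunit encoded by Ppp1r15a reverses that block. In the mammary gland this machinery serves secretory epithelium, and in tumours it is known to respond to hypoxia and shortage of nutrients.

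Messenger RNA was sequenced from 8 tumours, 4 labelled obese and 4 labelled lean. The obese group came from mice fed a high-fat diet (60% of calories from fat, 5.1 kcal/g) and the lean group from mice on a regular diet (10%, 3.6 kcal/g). Hosts of both groups were female C57BL/6 mice whose ovaries were removed at 6 weeks of age. The diets began 2 weeks after surgery, 6 weeks before the cells were injected. Over these 6 weeks mice on the high-fat diet gained 35% in body weight on average. Py230 cells, a single mouse breast adenocarcinoma line, were then injected into mammary gland 4 of every host, and tumours were taken on day 56. The comparison addresses which tumour genes differ between obese and lean hosts. Diet and obesity go together in these groups and cannot be told apart. The labels do not say that each tumour came from a separate mouse, so p-values measure the spread between these tumours, and the replicate numbers only name them.

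Total counts ran from 25.7 to 66.7 M per library, and levels are given as CPM (counts per 1 M counts of the TMM-scaled library, where TMM is the trimmed mean of M-values). Obese replicate 3 stood apart from its group: on the first principal component of the 1000 most variable genes, with 88.6% of their variance, its score was 12.9. The remaining obese tumours scored between −136 and −96.5, and lean tumours between 70.2 and 93.7. RNA of epithelial markers, looked at because Py230 is an epithelial tumour line, was low in most obese tumours. Epcam, an epithelial adhesion protein, was at 0.495, 4.20, 175 and 5.52 CPM in obese replicates 1 to 4, against 532, 233, 447 and 539 CPM in lean replicates. Krt18, a keratin of simple epithelium, was at 0.124, 0.115, 128 and 4.32 CPM in obese and 553, 224, 366 and 389 CPM in lean replicates. Obese replicate 3 thus held far more of both than the other obese tumours, though less than any lean tumour. Markers of other cells moved with the groups as well. The 8 basal epithelial markers summed to 53.1 to 93.6 CPM in obese and 289.8 to 3721 CPM in lean tumours (8 lower), and the 8 T and NK cell markers to 19.3 to 68.5 CPM and 82.7 to 214 CPM (7 lower, Trac at 0). Single tumours stood apart in others: the 6 skeletal muscle markers summed to 1347 CPM in lean replicate 1 and 1240.1 CPM in lean replicate 4, against 21.8 and 98.9 CPM in the other lean and 5.24 to 197 CPM in the obese tumours. The 7 neutrophil markers, with Ly6g at 0, summed to 507 CPM in obese replicate 1, against 21.3 to 61.8 CPM in the other obese and 21.9 to 63.0 CPM in the lean tumours. Macrophage sums overlapped between the groups (1605 to 2169 CPM in obese, 1248 to 3357 CPM in lean tumours). These are bulk samples, in which fewer cells of a type and less RNA per cell cannot be told apart.

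The 31 genes divided in direction. In obese tumours 10 were higher, namely Hsp90b1, Hyou1, Canx, Pdia4, Pdia6, Dnajb9, Edem1, Atf6, Ern1 and Ppp1r15a. Another 7 were lower, namely Calr, Dnajb11, Dnajc3, Herpud1, Derl3, Xbp1 and Sec61b. The remaining 14, Hspa5 among them, did not pass (edgeR quasi-likelihood test, Benjamini-Hochberg adjusted p under 0.05 over all 14887 tested genes). That is 32.3% of the 31 higher and 22.6% lower. Among all tested genes 30.9% were higher and 28.4% lower (59.2% either way), so these counts are near the background and are not a result about these genes as a group. Without obese replicate 3, the tumour that stood apart, 11 were higher (Syvn1 added) and 7 lower, beside 4726 higher and 5107 lower of 15184 tested genes. The median log2 change, obese minus lean, was 0.097 for the 31 and −0.038 for all tested genes. All 4 obese tumours lay above all 4 lean tumours for 9 of the 31 (28.9% of all tested genes) and below them for 6 (28.1%). Scaling by upper quartiles moved the median of all genes by −0.21, library size only moved it by −0.19, and no filter on low counts, which added genes, by −0.11. The first pair gave 8 higher and 8 lower of the 31, and the share of higher genes among all called genes was 41.2% with upper quartiles, against 52.1% with TMM scaling.

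**Figure D1:**
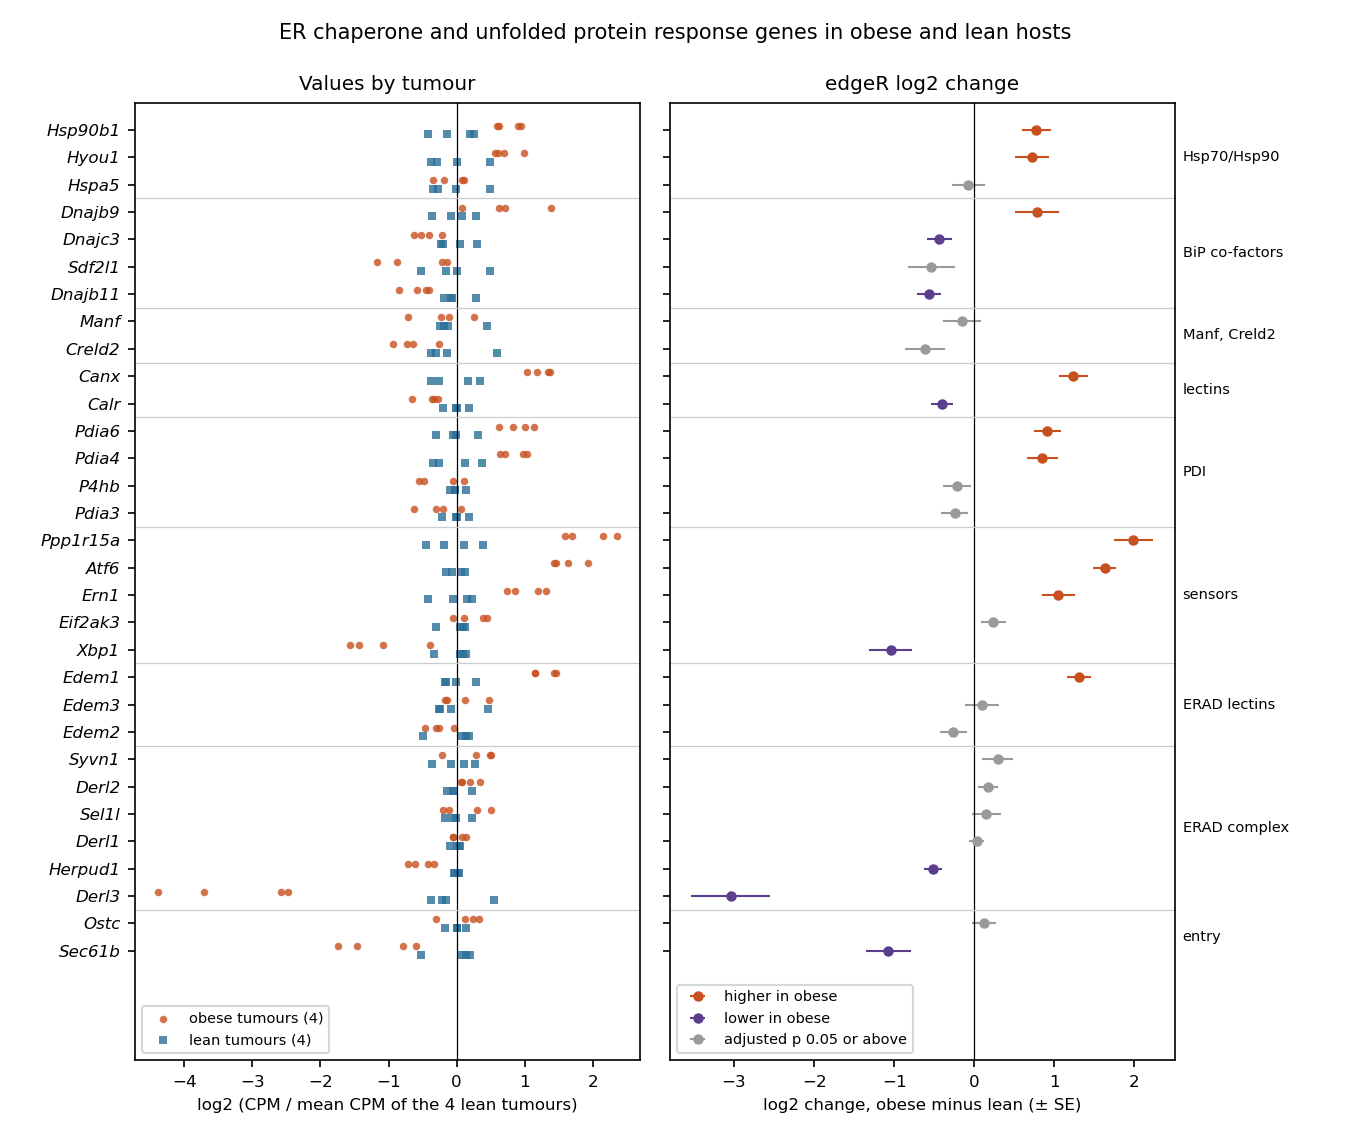
Left, the level of each of the 31 genes in every tumour as log2 of its CPM over the mean of the 4 lean tumours (circles, obese; squares, lean). Right, the edgeR log2 change, obese minus lean, with its standard error. Genes are grouped by role, and genes of 1 role often went different ways: Canx changed by 1.24 and Calr by −0.40, Atf6 by 1.63 and Xbp1 by −1.04.

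A DNA element known from many of these genes was found in genes of both directions. The ER stress response element (ERSE), bound by NF-Y with ATF6 or XBP1, was searched as CCAAT and CCACG with any 9 bases between them, on both strands of RefSeq promoter windows (GRCm38.p6, 250 bases before to 50 after the start), which held 26 of the 31 genes (not Derl1, Atf6, Manf, Ostc and Hyou1). It was present in 9 of these 26 genes, and in 9 of their 27 windows. Over all 32851 windows of that table, these included, the share was 0.119%. The sites are shown because they carry the same fixed letters in genes that went opposite ways. They are written 5′ to 3′ along the element, with the fixed letters in capitals and coordinates in GRCm38.p6, first the genes that were higher, then those that were lower, then those not called.
Hsp90b1, chr10:86705638-86705656: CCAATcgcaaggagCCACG
Hsp90b1, chr10:86705533-86705551: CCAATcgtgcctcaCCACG
Canx, chr11:50325800-50325818: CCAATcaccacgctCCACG
Pdia6, chr12:17266491-17266509: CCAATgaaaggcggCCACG
Calr, chr8:84847075-84847093: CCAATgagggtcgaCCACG
Dnajc3, chr14:118937827-118937845: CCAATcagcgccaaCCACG
Derl3, chr10:75893242-75893260: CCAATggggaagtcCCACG
Hspa5, chr2:34772025-34772043: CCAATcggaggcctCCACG
Creld2, chr15:88819520-88819538: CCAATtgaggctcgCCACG
Syvn1, chr19:6046532-6046550: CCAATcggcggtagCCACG
Of the 9 genes with the element, 3 were higher, 3 lower and 3 not called, with a median log2 change of −0.072. Of the 17 without it in the window, 5 were higher, 4 lower and 8 not called, with a median of 0.097. Both splits lie near the 30.9% higher and 28.4% lower of all tested genes. The shorter form ERSE-II, ATTGG and CCACG with any 1 base between them, stood in 2 further windows, those of Herpud1 and Dnajb11, and in 0.0365% of all windows. It overlapped no ERSE match in the 26 genes.
Herpud1, chr8:94386377-94386387: ATTGGgCCACG
Dnajb11, chr16:22857852-22857862: ATTGGcCCACG
The XBP1 core TGACGTGG matched in no window of the 26 genes and in 0.676% of all windows. The ATF4 core TGATGNAA matched in 1 of these genes, Herpud1, and in 3.97% of all. A match is a description of letters, and a window without one says nothing about the factor.

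**Figure D2:**
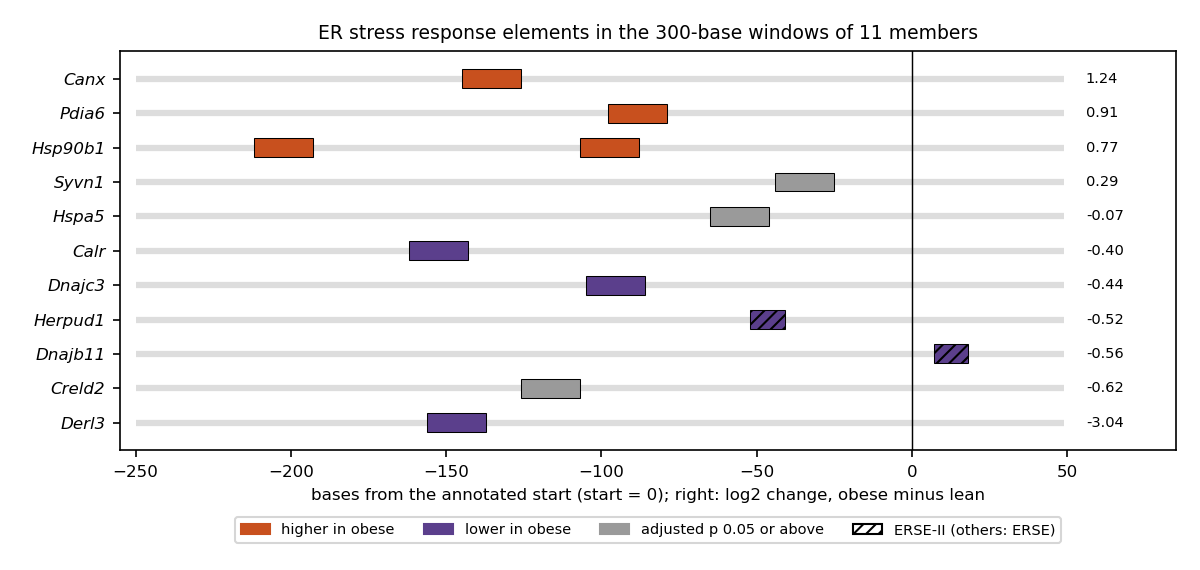
Positions of ERSE (plain boxes) and ERSE-II (hatched boxes) in the promoter windows of the 11 genes that hold one, in bases from the RefSeq start. Genes run from the highest to the lowest log2 change, obese minus lean, printed at the right. Every ERSE lies upstream of the RefSeq start, in higher, lower and uncalled genes alike, and the ERSE-II of Dnajb11 lies just after it. The GENCODE start of Hspa5, given in the text, lies further upstream, before its ERSE.

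The Hsp70 and Hsp90 chaperones of the ER lumen did not move together. Hspa5 encodes BiP, the Hsp70 that binds unfolded chains and holds the sensors inactive (ENSMUSG00000026864, chromosome 2, 34771970 to 34777547). It stood at 1888, 1384, 1853 and 1542 CPM in obese replicates 1 to 4, against 2450.4, 1741, 1375 and 1443 CPM in lean replicates 1 to 4. The groups overlapped across their ranges, and the highest value of all was lean replicate 1. Its log2 change was −0.072 ± 0.21 (edgeR adjusted p = 0.779), and over all alternatives it ran from −0.28 to 0.14. Hsp90b1 encodes GRP94, the Hsp90 of the ER, which folds integrins and Toll-like receptors (ENSMUSG00000020048, chromosome 10, 86690209 to 86705509). Its level was 2069, 1667, 1709 and 2124 CPM in obese replicates 1 to 4, against 1321, 1272, 829 and 1002 CPM in lean replicates 1 to 4. Every obese tumour lay above every lean tumour. The log2 change was 0.77 ± 0.18, a 1.71-fold difference (edgeR adjusted p = 0.00809), and 0.45 once GC content and exon length were corrected by offsets (edgeR adjusted p = 0.0411, within 0.00117 to 0.0411 over all alternatives). Hyou1, the nucleotide exchange factor that frees BiP from its substrates, stood at 428, 318, 329 and 349 CPM in obese tumours, against 303, 216, 166 and 178 CPM in lean tumours. It was also higher without overlap (0.72 ± 0.21, edgeR adjusted p = 0.0187). That call was lost when lean replicate 3 was left out (edgeR adjusted p = 0.0580), without lean replicate 4 (0.0585), with upper quartile scaling (0.0650) and with library size only (0.0511), within 0.00759 to 0.0650. The promoter windows of Hspa5 and Hsp90b1 are shown whole (RefSeq, GRCm38.p6), with ERSE matches in capitals. They are shown because Hspa5 is the best known target of the response and did not follow Hsp90b1.
Hspa5 promoter, chr2:34771840-34772139, plus strand: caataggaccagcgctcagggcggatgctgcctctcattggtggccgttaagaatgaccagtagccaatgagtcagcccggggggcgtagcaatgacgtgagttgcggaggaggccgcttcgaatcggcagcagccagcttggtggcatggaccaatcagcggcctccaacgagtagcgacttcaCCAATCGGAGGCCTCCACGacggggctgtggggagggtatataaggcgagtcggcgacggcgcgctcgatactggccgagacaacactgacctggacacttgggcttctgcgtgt
Hsp90b1 promoter, chr10:86705395-86705694, minus strand: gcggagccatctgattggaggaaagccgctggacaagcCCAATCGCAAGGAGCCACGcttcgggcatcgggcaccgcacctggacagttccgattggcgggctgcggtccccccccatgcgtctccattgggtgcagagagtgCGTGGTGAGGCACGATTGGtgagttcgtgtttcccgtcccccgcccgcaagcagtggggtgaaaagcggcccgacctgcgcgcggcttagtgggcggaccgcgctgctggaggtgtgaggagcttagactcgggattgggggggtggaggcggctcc

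Since both genes of a pair are counted in the same library, their ratio does not depend on library scaling. The ratios are not corrected for GC content or exon length, in which the genes of each pair differ. The count of Hspa5 over that of Hsp90b1 was 0.913, 0.831, 1.08 and 0.726 in obese replicates 1 to 4, against 1.85, 1.37, 1.66 and 1.44 in lean replicates 1 to 4. It averaged 0.888 ± 0.151 in obese and 1.58 ± 0.220 in lean tumours (SD, n = 4 each), and the groups did not overlap. This pair and the pairs below were chosen after their values were seen, so no test is given.

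Among the co-factors of BiP, Dnajb9 was higher and Dnajb11 and Dnajc3 were lower. Dnajb9 (ERdj4), a J-domain protein that the IRE1 branch is known to raise, stood at 29.5, 73.1, 45.9 and 43.3 CPM in obese replicates 1 to 4, against 29.4, 34.2, 26.5 and 21.8 CPM in lean replicates 1 to 4. Obese replicate 2 was far above the rest, and obese replicate 1 lay within the lean range. Its log2 change was 0.78 ± 0.28 (edgeR adjusted p = 0.0394). The call ended without obese replicate 2 (0.0838, log2 change 0.51), obese replicate 4 (0.0603) or lean replicates 1 (0.0668), 3 (0.0855) or 4 (0.0921). With upper quartile scaling (0.0964), library size only (0.0925), a filter of 1 CPM in 4 tumours (0.0588) and GC and length offsets (0.158, log2 change 0.48) it ended too, within an adjusted p of 0.0157 to 0.158. Dnajb11 (ERdj3), which hands unfolded chains to BiP, stood at 135, 102, 139 and 122 CPM in obese tumours, against 225, 176, 162 and 174 CPM in lean tumours. No obese value reached the lean range, and the gene was lower (−0.56 ± 0.15, edgeR adjusted p = 0.0132). Dnajc3 (p58IPK), a J-domain protein also known as an inhibitor of PERK, stood at 96.4, 103, 128 and 112 CPM in obese tumours, against 184, 154, 127 and 129 CPM in lean tumours. Only obese replicate 3 reached the lean range, just above lean replicate 3. It was lower (−0.44 ± 0.15, edgeR adjusted p = 0.0400), and the call ended without obese replicate 1 (0.103), 2 (0.0947) or 4 (0.0865), without lean replicate 1 (0.0901) or 2 (0.0687) and with no filter on low counts (0.0735), within 0.00399 to 0.103. With GC and length offsets its change was larger (−0.77). Sdf2l1, a partner of Dnajb11, stood at 46.4, 22.7, 44.1 and 27.9 CPM in obese tumours, against 71.8, 35.6, 45.9 and 51.1 CPM in lean tumours and did not pass (−0.53 ± 0.29, edgeR adjusted p = 0.143). That value was −0.31 without lean replicate 1 and −0.067 with GC and length offsets.

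The ER stress proteins Manf and Creld2 did not pass. Manf, a small protein that stays in the ER or is secreted under stress, averaged 162 ± 43.7 CPM in obese and 181 ± 44.1 CPM in lean tumours (SD, n = 4 each; log2 change −0.16 ± 0.24, edgeR adjusted p = 0.578). Creld2, a stress-induced protein of the ER lumen, stood at 86.5, 54.1, 66.0 and 62.4 CPM in obese tumours, against 156, 79.9, 83.6 and 93.4 CPM in lean tumours. Lean replicate 1 was the highest and obese replicate 1 overlapped with the other lean tumours. Its log2 change of −0.62 ± 0.25 missed the threshold (edgeR adjusted p = 0.0596). It passed, as lower, without obese replicate 1 (0.0449), without lean replicate 2 (0.0439), with upper quartile scaling (0.0241), library size only (0.0240) and the filter of 1 CPM in 4 tumours (0.0421), and with the DESeq2 Wald test (0.0339) and limma-voom (0.0499), within 0.0240 to 0.289. Its log2 change was −0.33 without lean replicate 1 (0.180) and −0.24 with GC and length offsets (0.289).

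The pair of lectin chaperones, which bind the same sugar tag on new glycoproteins, went opposite ways. Canx encodes the membrane-bound calnexin (ENSMUSG00000020368, chromosome 11, 50293961 to 50325673), at 868, 971, 788 and 995 CPM in obese replicates 1 to 4, against 431, 487, 322 and 298 CPM in lean replicates 1 to 4. The lowest obese value was well above the highest lean value. Its log2 change was 1.24 ± 0.18, a 2.36-fold difference (edgeR adjusted p = 0.00134), and it passed under every alternative run (1.45e-07 to 0.00775). With GC and length offsets the change of Canx was 0.89. Calr encodes calreticulin, the soluble form in the lumen (ENSMUSG00000003814, chromosome 8, 84841850 to 84846934), at 1266, 1037, 1354 and 1292 CPM in obese replicates 1 to 4, against 1854, 1616, 1422 and 1641 CPM in lean replicates 1 to 4. No obese tumour reached the lowest lean tumour, though the gap to it was narrow. Over all 8 tumours the log2 change was −0.40 ± 0.13 (edgeR adjusted p = 0.0324). The call ended without obese replicates 1 (0.0689), 2 (0.0892) or 4 (0.0675), without lean replicates 1 (0.0909) or 4 (0.0717) and with no filter on low counts (0.0581), within 0.00355 to 0.0909. With upper quartile scaling the log2 change of Calr was −0.61, and with GC and length offsets it was −0.29 (edgeR adjusted p = 0.0446). The ratio of their counts, Calr over Canx, was 1.46, 1.07, 1.72 and 1.30 in obese replicates 1 to 4, against 4.30, 3.32, 4.42 and 5.51 in lean replicates 1 to 4. It averaged 1.39 ± 0.274 in obese and 4.39 ± 0.898 in lean tumours (SD, n = 4 each). More reads fell on Calr than on Canx in every tumour, by less in each obese tumour than in any lean one. The windows of both genes hold 1 ERSE each, in capitals here, on opposite strands relative to transcription.
Canx promoter, chr11:50325624-50325923, minus strand: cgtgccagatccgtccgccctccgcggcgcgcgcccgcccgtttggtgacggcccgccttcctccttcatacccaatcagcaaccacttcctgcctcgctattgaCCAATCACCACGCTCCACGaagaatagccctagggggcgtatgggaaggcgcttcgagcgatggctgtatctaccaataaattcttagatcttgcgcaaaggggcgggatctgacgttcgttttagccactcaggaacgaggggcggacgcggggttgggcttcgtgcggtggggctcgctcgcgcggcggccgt
Calr promoter, chr8:84846882-84847181, minus strand: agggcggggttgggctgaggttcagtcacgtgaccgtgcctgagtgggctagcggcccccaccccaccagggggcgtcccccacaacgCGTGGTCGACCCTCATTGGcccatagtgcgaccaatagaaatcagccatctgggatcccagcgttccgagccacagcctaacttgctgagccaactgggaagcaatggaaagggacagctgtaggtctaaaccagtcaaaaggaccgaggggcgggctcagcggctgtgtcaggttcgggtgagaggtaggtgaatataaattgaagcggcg

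**Figure D3:**
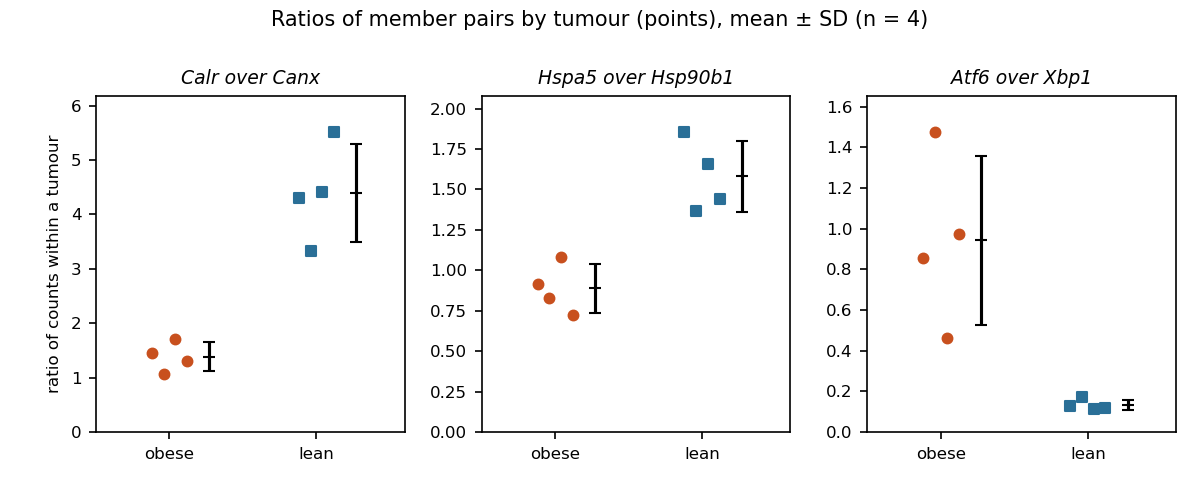
Ratios of the counts of gene pairs within each tumour (points, obese left of lean), with mean ± SD over 4 tumours beside them; the vertical axes are linear and start at 0. Calr over Canx and Hspa5 over Hsp90b1 were lower in every obese tumour than in any lean tumour, and Atf6 over Xbp1 was higher.

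Of the protein disulfide isomerases, which form and reshuffle disulfide bonds, Pdia4 and Pdia6 were higher while P4hb and Pdia3 did not pass. Pdia6 (P5), which also acts on the IRE1 sensor, stood at 724, 942, 838 and 1037 CPM in obese tumours, against 583, 466, 379.9 and 453 CPM in lean tumours. Pdia4 (ERp72) stood at 479.5, 378, 399 and 500.1 CPM in obese tumours, against 314, 265, 191 and 203 CPM in lean tumours. In both genes the groups did not overlap. Pdia6 changed by 0.91 ± 0.17 (edgeR adjusted p = 0.00334) and Pdia4 by 0.85 ± 0.19 (0.00653) on the log2 scale, and both passed under every alternative run. P4hb (PDI), also a subunit of collagen prolyl 4-hydroxylase, averaged 1726 ± 387 CPM in obese and 2008 ± 148 CPM in lean tumours (SD, n = 4 each; −0.22 ± 0.17, edgeR adjusted p = 0.295). Obese replicates 2 and 4 were below all lean tumours, and replicates 1 and 3 were among them. Pdia3 (ERp57), which works with both lectins, averaged 1104 ± 215 CPM in obese and 1308 ± 147 CPM in lean tumours (SD, n = 4 each; −0.24 ± 0.17, edgeR adjusted p = 0.228).

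Among the sensors and regulators, Ppp1r15a, Atf6 and Ern1 were higher, Xbp1 was lower and Eif2ak3 did not pass, and Ppp1r15a and Atf6 had the largest rises of the 31 genes. Ppp1r15a (GADD34), the subunit that directs a phosphatase to the translation factor blocked by PERK (ENSMUSG00000040435, chromosome 7, 45522916 to 45526268), stood at 109, 94.8, 63.9 and 69.1 CPM in obese replicates 1 to 4, against 27.9, 15.6, 18.7 and 22.9 CPM in lean replicates 1 to 4. The lowest obese tumour held more than any lean tumour by a wide margin. Its log2 change was 1.98 ± 0.24, a 3.95-fold difference (edgeR adjusted p = 0.000634). Atf6, the sensor that is cut in the Golgi to release a transcription factor (ENSMUSG00000026663, chromosome 1, 170704674 to 170867771), stood at 201, 246, 174 and 179 CPM in obese replicates 1 to 4, against 70.8, 67.6, 58.4 and 62.1 CPM in lean replicates 1 to 4. The lean values lay close together, and all 4 obese values were far above them. This gave a log2 change of 1.63 ± 0.14, a 3.09-fold difference (edgeR adjusted p = 0.000216). Ern1, which encodes IRE1, the kinase and nuclease that splices Xbp1 RNA, stood at 32.5, 35.3, 23.5 and 25.7 CPM in obese tumours, against 15.8, 10.6, 13.6 and 16.6 CPM in lean tumours without overlap (1.05 ± 0.21, edgeR adjusted p = 0.00413). Eif2ak3, which encodes PERK, averaged 56.1 ± 8.88 CPM in obese and 47.7 ± 6.02 CPM in lean tumours (SD, n = 4 each) and did not pass (0.24 ± 0.15, edgeR adjusted p = 0.210).

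Xbp1 encodes the transcription factor made from RNA that IRE1 has spliced (ENSMUSG00000020484, chromosome 11, 5520659 to 5525893), and it went the other way from the Ern1 and Atf6 genes. Its level was 235, 167, 377 and 183 CPM in obese replicates 1 to 4, against 545, 396, 513 and 529 CPM in lean replicates 1 to 4. Obese replicate 3 was the highest of its group, just below lean replicate 2, and the other obese tumours lay far lower. The log2 change was −1.04 ± 0.26, a 2.06-fold lower level (edgeR adjusted p = 0.0113), and −1.34 without obese replicate 3. Gene counts add spliced and unspliced Xbp1 RNA, so they say nothing of IRE1 activity. The count of Atf6 over that of Xbp1 was 0.855, 1.48, 0.463 and 0.976 in obese replicates 1 to 4, against 0.130, 0.171, 0.114 and 0.117 in lean replicates 1 to 4. Xbp1 is also a gene of luminal mammary epithelium, whose markers differed between the groups. The 13 luminal markers, Krt8, Krt18 and Epcam among them, summed to 134 to 1106 CPM in obese tumours, highest in replicate 3, and to 1622 to 3079 CPM in lean tumours. Of these 13, 5 passed as lower and 0 as higher (edgeR; at an unadjusted p under 0.05, 7 and 0; DESeq2 9 and 0; limma-voom 11 and 0), and the part of that difference in Xbp1 was not tested.

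Among the ERAD mannose lectins, which mark glycoproteins for removal, Edem1 was higher and Edem2 and Edem3 did not pass. Edem1 (ENSMUSG00000030104, chromosome 6, 108828641 to 108859356) stood at 321, 258, 259 and 312 CPM in obese replicates 1 to 4, against 142, 116, 103 and 104 CPM in lean replicates 1 to 4. The groups were well apart, with little spread in either. On the log2 scale the change was 1.31 ± 0.15, a 2.47-fold difference (edgeR adjusted p = 0.000425). Edem2, which makes the first trimming cut, averaged 74.5 ± 9.20 CPM in obese and 89.3 ± 17.4 CPM in lean tumours (SD, n = 4 each; −0.26 ± 0.17, edgeR adjusted p = 0.208), and it passed as lower in 1 alternative, without lean replicate 2 (0.0274, within 0.0274 to 0.586). Edem3, a related mannosidase, averaged 69.1 ± 14.97 CPM in obese and 64.6 ± 16.6 CPM in lean tumours (SD, n = 4 each; 0.097 ± 0.22, edgeR adjusted p = 0.710).

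Of the genes of the ERAD membrane complex, Herpud1 and Derl3 were lower, and Sel1l, Syvn1, Derl1 and Derl2 did not pass. Herpud1, which gathers the complex and is itself induced by ER stress (ENSMUSG00000031770, chromosome 8, 94386438 to 94395377), stood at 86.9, 113, 107 and 93.5 CPM in obese replicates 1 to 4, against 147, 145, 141 and 139.7 CPM in lean replicates 1 to 4. The lean values were nearly equal, and every obese value lay below them. Its log2 change was −0.52 ± 0.11 (edgeR adjusted p = 0.00582). It was −0.29 with GC and length offsets, where the call ended (edgeR adjusted p = 0.0848, within 1.21e-06 to 0.0848). Sel1l, the adaptor of the complex, averaged 179.7 ± 41.4 CPM in obese and 162 ± 19.2 CPM in lean tumours, and Syvn1 (HRD1), its ubiquitin ligase, 100.2 ± 21.2 CPM in obese and 81.9 ± 14.8 CPM in lean tumours (SD, n = 4 each). On the log2 scale Sel1l differed by 0.15 ± 0.18 (edgeR adjusted p = 0.477) and Syvn1 by 0.29 ± 0.20 (0.226). Syvn1 passed as higher in 1 alternative, without obese replicate 3 (0.0480, within 0.0480 to 0.756). The derlins Derl1 and Derl2, which help to move proteins out of the ER, differed by 0.028 ± 0.09 (edgeR adjusted p = 0.804) and 0.17 ± 0.12 (0.238) on the same scale. Derl1 had the smallest change of the 31, with 122 to 139 CPM in obese and 119 to 131 CPM in lean tumours.

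Derl3, the derlin known from secretory tissue and plasma cells (ENSMUSG00000009092, chromosome 10, 75893413 to 75895941), had the largest fall and by far the lowest level of the 31. Its counts were 2, 8, 15 and 13 in obese replicates 1 to 4, against 61, 81, 68 and 143 in lean replicates 1 to 4. In CPM these are 0.0826, 0.132, 0.290 and 0.312 in obese and 1.498, 1.55, 1.33 and 2.54 in lean replicates. No obese tumour came near the lean range. The log2 change was −3.04 ± 0.49 (edgeR adjusted p = 0.00192), and it passed under every alternative run (2.42e-07 to 0.00687). Markers of B cells and plasma cells moved with it. Jchain, the joining chain of secreted antibodies, stood at 0.743, 0.0659, 4.95 and 10.5 CPM in obese tumours, against 91.9, 103, 100.1 and 177 CPM in lean tumours (−4.85 ± 1.23, edgeR adjusted p = 0.0117). Mzb1, a BiP co-factor of plasma cells, was at 0.0494 to 1.03 CPM in obese and 7.44 to 14.9 CPM in lean tumours. The 8 B cell markers summed to 7.81 to 17.6 CPM in obese and 37.7 to 71.9 CPM in lean tumours, and 7 of the 8 were lower. The other 10 plasma cell markers summed to 409 to 750.3 CPM in obese and 324 to 474 CPM in lean tumours, most of it Sdc1. Epithelium also expresses Sdc1, which was higher (1.06 ± 0.26), while the luminal and basal epithelial marker sums were lower. Which cells held Sdc1 RNA was not tested. Of the 10 markers, 5 were tested, with 3 lower and 1 higher, and the antibody genes Igkc, Ighm, Igha and Ighg1 were listed at 0 in every library. A gene at 0 in every library, here and elsewhere, was not read as absent RNA, as the annotation used for counting is not given. The part of B cells and plasma cells in the level of Derl3 was not tested.

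**Figure D4:**
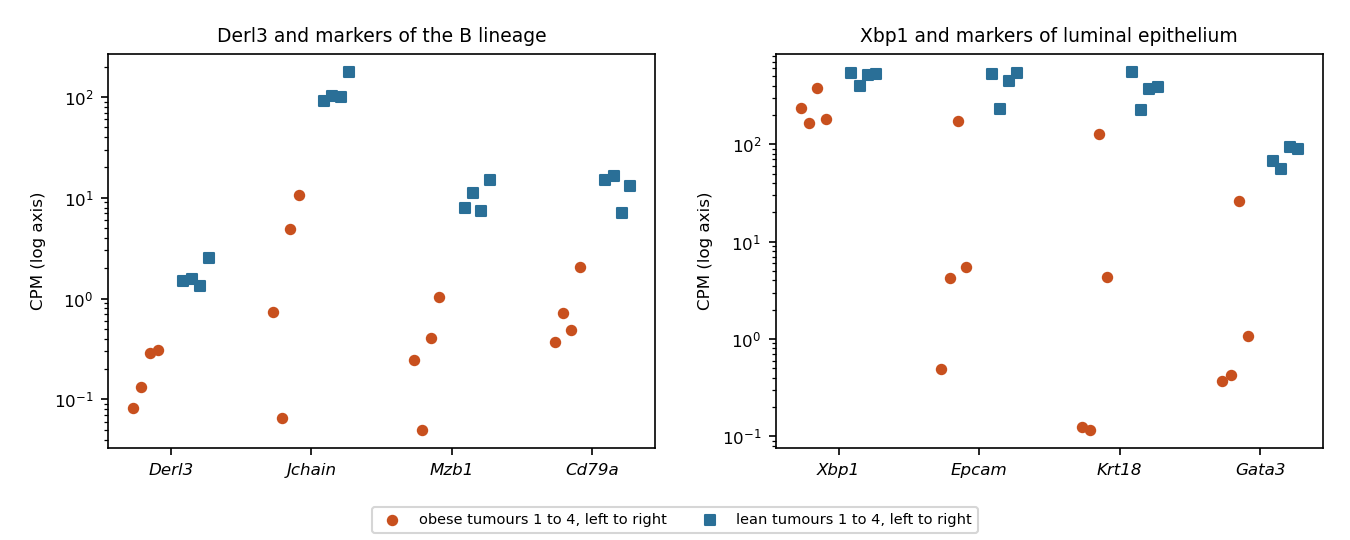
CPM on a log axis in every tumour (obese left of lean; replicates 1 to 4 from left to right) for Derl3 beside Jchain, Mzb1 and Cd79a of the B lineage, and for Xbp1 beside Epcam, Krt18 and Gata3 of luminal epithelium. All 4 obese tumours lie below all 4 lean tumours in each gene, and obese replicate 3 is the highest obese tumour for Xbp1 and for each luminal marker.

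At the entrance to the ER, Sec61b was lower and Ostc did not pass. Sec61b, a small subunit of the channel that takes new chains into the ER (ENSMUSG00000053317, chromosome 4, 47474658 to 47483242), stood at 103, 46.2, 89.9 and 56.1 CPM in obese replicates 1 to 4, against 164, 108, 179 and 170.1 CPM in lean replicates 1 to 4. Obese replicate 1 came closest to the lean range, just below lean replicate 2. That gave a log2 change of −1.07 ± 0.28, a 2.10-fold lower level (edgeR adjusted p = 0.0135), and −0.64 with GC and length offsets (0.0286, within 0.000868 to 0.0412). Ostc, a subunit of the oligosaccharyltransferase that attaches sugars to incoming chains, averaged 139 ± 24.6 CPM in obese and 128 ± 11.3 CPM in lean tumours (SD, n = 4 each; 0.12 ± 0.15, edgeR adjusted p = 0.517).

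Per kilobase of exon, the same genes held the first and the lowest places in both groups, and many places between them changed. P4hb was the most abundant in both groups, at 603 CPM per kb in obese and 702 CPM per kb in lean tumours. Hsp90b1 took place 2 in obese tumours (469 CPM per kb) and place 5 in lean tumours (274 CPM per kb). Canx took place 7 in obese tumours (193 CPM per kb), against place 10 in lean tumours (81.9 CPM per kb). Xbp1 took place 9 in obese tumours (74.0 CPM per kb) and place 6 in lean tumours (153 CPM per kb). Atf6 took place 21 in obese and 29 in lean tumours and Ppp1r15a 20 and 28, while Dnajb11 took 18 and 13. Ern1 (3.58 CPM per kb in obese, 1.73 in lean tumours) and Derl3 (0.102 and 0.868) closed the order in both groups. No test was made of these ranks, and Hspa5 and Pdia3, neighbours in the order of lean tumours, differed by far less than their spread there.

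Tumours of 1 group also differed among themselves in these genes. Among the lean tumours, replicate 1 had the highest level for 22 of the 31 genes and for 13 of the 15 chaperones, co-factors, isomerases and ER stress proteins, the exceptions being Canx and Dnajb9. Over all tested genes it was the highest lean tumour for 24.8%. Lean replicate 1 held 2450.4 CPM of Hspa5, 246 CPM of Manf and 156 CPM of Creld2, in each case the highest of all 8 tumours. The same tumour held the highest sum of skeletal muscle markers (1347 CPM), and lean replicate 4 nearly as much (1240.1 CPM). Lean replicate 4 was the highest lean tumour for 3 of the 31 genes and for 0 of those 15. The part of muscle in these levels was not tested. Among the obese tumours the highest value was in replicate 1 for 11 of the 31 genes (20.1% of all tested genes), in replicate 2 for 7 (27.5%), in replicate 3 for 8 (36.3%) and in replicate 4 for 5 (16.2%). Obese replicate 3 was the obese tumour nearest the lean mean for 8 of the 17 genes that passed. The matching share over all tested genes was not computed, and this tumour also lay nearest the lean tumours on the first principal component.

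Several features of the genes differed between the directions, with no test made. The 10 higher genes had a median exon length of 4362.5 bases and a median GC content of 46.9%, and the 7 lower genes 2880 bases and 53.0%. All tested genes had 4255 bases and 49.9%. With offsets for both, 9 of the 31 were higher and 6 lower, beside 4604 higher and 4277 lower of 14759 tested genes. The calls of Dnajb9 and Herpud1 were the ones that ended. Annotated genes on the opposite strand overlap 11 of the 31, of which 4 were higher and 2 lower (30.9% and 28.4% of all tested genes). The strand setting of the counting is not given in the sources used here. Such reads cannot be told apart if strand was ignored. Of the partners of called genes, Atp6v1c2 beside Pdia6 stood at 1.71 CPM in obese and 32.3 CPM in lean tumours, opposite to Pdia6 in direction, and Tulp2 beside Ppp1r15a at 0.167 and 0.0347 CPM. Calr has an annotated processed pseudogene, which was listed at 0.

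Outside the 31, a list of 130 further ER genes was examined, of which 124 were tested. Of these, 48 were higher and 27 lower in obese tumours, with a median log2 change of 0.23, beside 30.9%, 28.4% and −0.038 for all tested genes. The 6 not tested were Clgn and Pdia2, which were near 0, and Ern2, Selenof, Selenos and Selenok, which were listed at 0. Of 15 genes listed around the PERK branch, 10 were higher and 0 lower (edgeR), with a median of 0.86. The counts were also 10 and 0 at an unadjusted p under 0.05, with DESeq2 and with limma-voom. That list also holds Eif2ak1, Eif2ak2 and Eif2ak4, which encode kinases other than PERK, while Eif2ak3 (PERK) is among the 31 and did not pass. Atf4, the transcription factor whose translation PERK favours, stood at 536, 486, 434 and 529 CPM in obese tumours, against 292, 268, 233 and 256 CPM in lean tumours (0.92 ± 0.12, edgeR adjusted p = 0.000778). Chac1, which breaks down glutathione (2.45 ± 0.53), Eif2s1, the translation factor that PERK phosphorylates (1.51 ± 0.23), Sesn2 (1.38 ± 0.23) and Atf3 (1.22 ± 0.26) were higher. Trib3 was higher (1.25 ± 0.44, edgeR adjusted p = 0.0392). Its call ended without obese replicates 1 (0.0680), 2 (0.0804) or 4 (0.0670), lean replicates 3 (0.0871) or 4 (0.0512), and in 3 other settings, within 0.00664 to 0.0871. Ddit3 (CHOP), the factor tied to death under ER stress, was at 29.6, 37.5, 28.8 and 25.2 CPM in obese tumours, against 28.9, 9.08, 18.3 and 25.2 CPM in lean tumours. These values overlapped and did not pass (0.57 ± 0.33, edgeR adjusted p = 0.168), with 0.32 when lean replicate 2, the lowest, was left out.

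Genes that pair with the 31 by function gave mixed directions, beside 30.9% higher and 28.4% lower among all tested genes. Of 16 disulfide and oxidation genes 5 were higher and 5 lower (median −0.12). Ero1l, the oxidase that recharges the disulfide isomerases, stood at 229, 287, 166 and 270.2 CPM in obese tumours, against 50.8, 57.0, 36.3 and 36.0 CPM in lean tumours (2.40 ± 0.23, edgeR adjusted p = 0.000287). Tmx1 (0.94 ± 0.16, or 0.60 with GC and length offsets) was higher and Erp29 (−0.95 ± 0.14) lower. Of 13 other ER chaperones 2 were higher and 5 lower (median −0.21). Serpinh1, the collagen chaperone (1.24 ± 0.19), and Hspa13 (1.34 ± 0.15) were higher, and Cnpy2 (−1.27 ± 0.23) lower. Of 7 prolyl isomerases 1 was higher and 3 lower (median 0.067). Fkbp10, a collagen-folding isomerase, stood at 339, 295, 173 and 155 CPM in obese tumours, against 28.9, 24.9, 17.6 and 13.99 CPM in lean tumours (3.49 ± 0.35, edgeR adjusted p = 0.000325), while its relatives Fkbp14 (−2.71 ± 0.60, or −3.34 without obese replicate 3) and Fkbp7 (−1.39 ± 0.34) were lower. Fibroblasts make much of the collagen that Serpinh1 and Fkbp10 serve. The 8 fibroblast markers summed to 1257 to 5092 CPM in obese and 1221 to 1615 CPM in lean tumours, with 3 higher and 3 lower, and their part in these values was not tested.

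In the glycan trimming list, which serves Canx and Calr, 4 of 7 genes were higher and 0 lower (edgeR), with a median of 0.49. The counts were 4 and 0 at an unadjusted p under 0.05 and with DESeq2, and 5 and 0 with limma-voom. Among all tested genes 30.9% were higher and 28.4% lower. Uggt1, which returns misfolded glycoproteins to the lectins (1.15 ± 0.16, edgeR adjusted p = 0.00103), and Prkcsh, a glucosidase subunit (0.77 ± 0.18), were higher. Man1b1 was higher (0.41 ± 0.11), but not without lean replicate 3 (edgeR adjusted p = 0.0511), with upper quartile scaling (0.152, log2 change 0.20) or with library size only (0.0813, 0.23), within 0.00407 to 0.152. Of 11 oligosaccharyltransferase subunits 4 were higher and 4 lower (median 0.11), or 36.4% each, near the shares of all tested genes. Magt1 (1.13 ± 0.14, or 0.73 with GC and length offsets) was higher, and Rpn1 (−1.10 ± 0.20) and Dad1 (−0.93 ± 0.17) were lower. Of 16 translocon and signal peptidase genes 8 were higher and 2 lower (median 0.38). Ssr3 (1.26 ± 0.13), Tram2 (2.20 ± 0.33) and Spcs3 (1.40 ± 0.18) were higher, in contrast to Sec61b.

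Of 20 further ERAD genes 8 were higher and 3 lower (median 0.18), beside 30.9% and 28.4% of all tested genes. Erlin1 (1.67 ± 0.16) and Herpud2, the paralog of Herpud1 (1.16 ± 0.17, edgeR adjusted p = 0.00116), were higher, and Vcp, the ATPase that pulls proteins from the membrane (−0.61 ± 0.11), was lower. Herpud2 stood at 48.3, 69.1, 42.2 and 52.9 CPM in obese tumours, against 23.6, 25.8, 23.8 and 21.9 CPM in lean tumours, the reverse of Herpud1. Of 13 further genes of the IRE1, ATF6 and CREB3 branch 4 were higher and 3 lower (median −0.12), or 30.8% and 23.1%. Creb3l2 (1.41 ± 0.27) and Crebrf (1.78 ± 0.35) were higher and Creb3 (−1.13 ± 0.23), which is cut by the same proteases as ATF6, lower. Of 7 ER-phagy receptors 2 were higher and 2 lower (median −0.098), or 28.6% each, near the shares of all tested genes. Atl3 (1.16 ± 0.31) was higher. Tex264 (0.75 ± 0.22) was higher, with 1.17 under GC and length offsets, but its call ended with upper quartile scaling (edgeR adjusted p = 0.0631, within 0.000900 to 0.0631). Retreg1 was lower (−2.23 ± 0.63), with −3.11 without obese replicate 3, and leaving out obese replicate 4 took its call away (edgeR adjusted p = 0.0502, within 0.000161 to 0.0502).

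**Figure D5:**
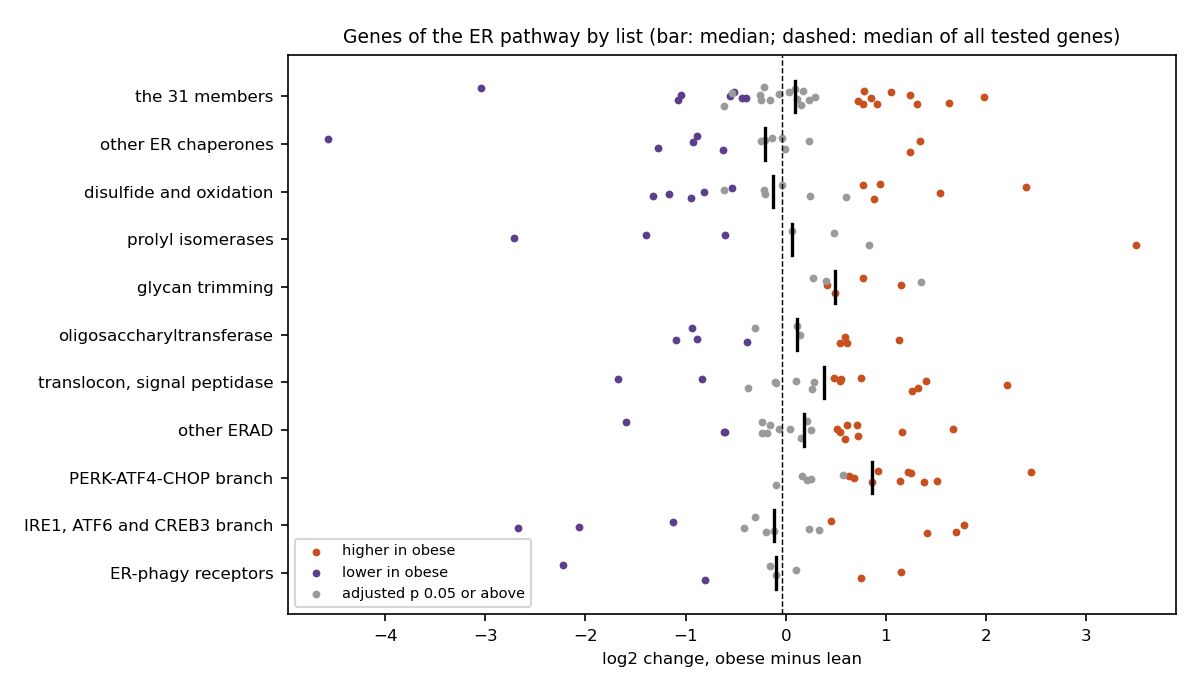
Log2 change, obese minus lean, of each tested gene (points) in the 31 genes and in 10 further lists of ER genes. Black bars are the medians, from −0.21 for other ER chaperones to 0.86 for the list around the PERK branch. The dashed line is the median of all tested genes, −0.038. Every list holds higher genes, and all but 2 hold lower genes as well.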

How the data were processed

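RNA of 8 snap-frozen tumours was extracted with a column kit and made into stranded libraries, per the labels' protocols. The deposited table holds raw counts of reads per Ensembl gene. Per the submitters' processing notes, the tools were STAR 2.5.2b, HTSeq, cutadapt 1.12, CASAVA 1.8 and bcl2fastq 2.18.0.12, and the build was mm10; annotation, strand setting and read filters are not given in the sources used here. Symbols, coordinates (GRCm38, counted from 1) and exon lengths came from GENCODE M21, which matched 49412 of 50143 IDs.

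Groups came from the condition label. Genes were kept by edgeR's filterByExpr (minimum count 10, minimum total 15), TMM-scaled, and compared by the quasi-likelihood test of edgeR (two-sided, robust dispersion), with Benjamini-Hochberg adjustment across 14887 genes and a threshold of 0.05. Log2 changes are obese minus lean, and their standard error (SE) is the change divided by the square root of the F statistic. CPM uses the TMM-scaled library sizes. Counting error at 25.7 M counts or more is small for all of the 31 genes but Derl3. Alternatives were other scaling (upper quartile, size factors of DESeq2, library size only), no filter or 1 CPM in 4 tumours, the DESeq2 Wald test, limma-voom, loess offsets (span 0.5) for GC content and exon length (14759 genes, 99.1%), and leaving out each tumour. Software was edgeR 4.0.16, DESeq2 1.42.0 and limma 3.58.1 in R 4.3.3.

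The 31 genes and all lists were chosen with earlier results of these data known, and lists are described by counts and medians only. All 31 genes are named; from each further list the 3 tested genes with the smallest p are named, plus Atf4, Ddit3, Trib3, Atf3 and Chac1. Others, such as marker genes given beside a result, were named after their values were seen.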

Additional observations from a re-analysis of the deposited data

Results flagged for a closer look

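In 62 groups of 4 tumours (31 genes, obese and lean), 1 held a tumour far from the others. Manf stood at 246 CPM in lean replicate 1, against 165, 158 and 153 CPM in lean replicates 2, 3 and 4. The gap to the nearest lean tumour was 0.864 of the whole range, above the limit of Dixon's test for 4 samples. Chance alone marks about 1 in 20 groups in this way. The obese tumours held 216, 109.7, 168 and 154 CPM of Manf, and without lean replicate 1 the log2 change, obese minus lean, was 0.041 (edgeR adjusted p = 0.897, within 0.221 to 0.998 over all alternatives), against −0.16 ± 0.24 with it.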

How the results depend on the processing

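The 16 alternatives gave 8 to 11 higher and 5 to 8 lower of the 31 genes, and over all tested genes 3612 to 4771 higher and 3136 to 5145 lower. Leaving out 1 tumour at a time gave 8 to 11 higher and 5 to 8 lower, with a median of the 31 genes from 0.015 to 0.14; over all tested genes it gave 3820 to 4771 higher and 3136 to 5107 lower. That median, 0.097 in the full set, was −0.12 under upper quartile scaling, −0.098 under library size only and −0.026 under GC and length offsets, beside a spread of 0.109 between tumours. The first pair of settings moved the median of all genes down as well, and the cause was not tested for the third. Of the 17 genes that passed, 12 passed under every alternative, 5 lost their call in at least 1 (Calr, Dnajb9, Dnajc3, Hyou1 and Herpud1), and none changed sign. Of the 14 that did not pass, 3 passed in at least 1 (Creld2, Edem2 and Syvn1). Depth limits Derl3 alone among the 31, where the limit that a count of 0 allows, 3 counts, corresponds to 0.0494 to 0.124 CPM; obese replicate 1 held 2 counts. No paired analysis was possible because the labels give no number shared between obese and lean tumours.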
